A study of Mus musculus with 32 samples.

Results

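Described here are 7 genes of the slow muscle fibre in mouse quadriceps: the myosin light chain genes Myl2 and Myl3, the troponin genes Tnnt1, Tnni1 and Tnnc1, the tropomyosin gene Tpm3 and the Z-disc gene Myoz2. They were taken by gene name, as 7 of the 53801 gene IDs in the deposited tables. All 7 were among the 12817 genes that reached at least 1 TPM in at least 4 libraries and were tested. TPM is a level of RNA scaled for gene length and library total, so levels can be compared between genes.

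The study compared wild-type (WT) mice with mice homozygous for the Col6a2 tm1(KOMP)Vlcg allele, written Col6a2-/-; Col6a2 encodes the α2 chain of collagen VI, a protein of the muscle extracellular matrix. The allele arose on C57BL/6N and had been crossed back to C57BL/6J for 5 generations, and both genotypes came from heterozygous parents, so all 8 groups share this mixed background. Mice were female or male and 5 or 25 weeks old, with 4 mice and thus 4 libraries in each of the 8 groups and 32 libraries in all. RNA came from cryosections of snap-frozen quadriceps, and the labels do not state at which level of this compound muscle the sections were cut.

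A slow fibre carries its own versions of the proteins that make and control force. In the thin filament, tropomyosin covers the myosin binding sites of actin, and the troponin complex moves it when calcium arrives: troponin C (Tnnc1) binds calcium, troponin I (Tnni1) holds the inhibited state and troponin T (Tnnt1) ties the complex to tropomyosin (Tpm3). The light chains Myl2 (regulatory) and Myl3 (essential) stiffen the neck of the slow myosin heavy chain encoded by Myh7, and Myoz2 encodes calsarcin-1, which sits at the Z-disc and binds α-actinin and calcineurin. Myl2, Myl3, Tnnc1 and Myoz2 are also expressed in the heart, and Tpm3 also gives tropomyosins outside muscle. Mouse quadriceps is mostly fast muscle, with slow fibres mainly in its deep part, and levels of these genes are low beside those of their fast partners: Mylpf, Myl1, Tnnt3, Tnni2, Tnnc2, Tpm1 and Myoz1.

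The genes lie apart in the genome (GRCm38, as the tables and GENCODE M21 give them). Myl2 (ENSMUSG00000013936) is at chr5:122100951-122113472 on the plus strand, Myl3 (ENSMUSG00000059741) at chr9:110741861-110769798 on the plus strand, and Tnnt1 (ENSMUSG00000064179) at chr7:4504570-4516382 on the minus strand. Tnni1 (ENSMUSG00000026418) is at chr1:135779434-135810989 on the plus strand and Tnnc1 (ENSMUSG00000091898) at chr14:31208312-31211729 on the plus strand. Tpm3 (ENSMUSG00000027940, plus strand, chr3:90072649-90100902) and Myoz2 (ENSMUSG00000028116, minus strand, chr3:123006206-123035015) share a chromosome. Use of strand in counting is not stated in the sources used here. Tnnc1 overlaps Nisch on the other strand, listed at 8.83 to 29.1 TPM, so part of a low Tnnc1 value could not be told apart from Nisch reads. The genes Tpm3-rs7 (0.761 to 3.74 TPM) and Tpm3-rs2 (0 in all libraries) are named as copies of Tpm3, and reads shared with them are uncertain.

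The levels of the 7 genes went up and down together between mice, so the bases before their start sites are shown for 3 of them: Tnnc1 and Tnnt1, the pair with the highest Pearson r, and Myl3, whose window held a CArG box and more MCAT matches than the others. Sequences are from RefSeq (GRCm38.p6), 5′ to 3′ on the gene's strand, and hold only bases outside the annotated exons of the gene; capitals mark the MCAT motif CATTCC (or GGAATG, its other strand), the site of TEAD factors, and the CArG box, the site of serum response factor. No MCAT or CArG match fell in the Tnnt1 window. The windows are chr14:31208062-31208311 (plus strand) for Tnnc1, chr7:4516005-4516225 (minus strand) for Tnnt1 and chr9:110763428-110763645 (plus strand) for Myl3. The Tnnt1 and Myl3 windows lie inside the gene spans given above. Each thus precedes a start within the span and not the outermost 5′ end of the gene.
Tnnc1: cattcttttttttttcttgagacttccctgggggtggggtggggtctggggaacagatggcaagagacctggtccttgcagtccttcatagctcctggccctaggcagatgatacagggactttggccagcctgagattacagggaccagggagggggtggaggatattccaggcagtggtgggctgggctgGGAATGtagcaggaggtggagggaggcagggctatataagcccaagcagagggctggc
Tnnt1: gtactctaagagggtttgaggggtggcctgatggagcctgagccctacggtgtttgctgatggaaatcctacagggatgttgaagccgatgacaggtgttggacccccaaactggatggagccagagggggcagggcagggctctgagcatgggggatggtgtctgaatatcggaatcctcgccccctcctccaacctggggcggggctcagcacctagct
Myl3: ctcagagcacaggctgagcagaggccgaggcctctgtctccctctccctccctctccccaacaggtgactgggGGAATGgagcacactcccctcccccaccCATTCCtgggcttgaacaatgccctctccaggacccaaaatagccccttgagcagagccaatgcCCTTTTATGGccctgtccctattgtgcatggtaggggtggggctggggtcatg
Motifs were searched on both strands in the 250 bases before each start, counted separately with overlaps kept. A RefSeq window began within 50 bases of a coding transcript start for 6 of the 7 genes; the windows listed for Myl2 were 7762 and 8227 bases away and were not used. MCAT matched in the windows of Myl3 (2 matches) and Tnnc1 (1 match), and in 12.6% of 32851 promoter windows of all genes. The CArG box matched in Myl3 (1.47% of windows), and the MEF2 motif in Myoz2 (2.92% of windows). The E-box CANNTG, the site of MyoD-like factors, matched in windows of all 6 genes and in 66.2% of windows overall. Such matches describe letters and are not evidence of binding.

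Col6a2 itself was at 6.6 to 51.2 TPM in the 16 WT libraries and at most 0.171 TPM in the 16 Col6a2-/- libraries, as labelled. Depth, read from the ratio of the deposited coverage to FPKM, was 6.78 to 13.7 (median 8.95), and 10399 to 12877 genes reached 1 TPM per library. Mitochondrial genes took 31.9% to 46.9% of TPM and the small RNA gene Rn7s 20.8% to 30.5%. The tissue matched its label: Acta1, the skeletal muscle actin, was at 4534 to 9450 TPM, while the heart genes Myl7 and Nppa were at 0 in all 32 libraries and Tnni3 reached at most 0.633 TPM. The fourth heart gene of the list, Myh6, was at 0.00591 to 20.2 TPM; it lies beside Myh7. Nothing in the labels says that mice of a group shared litters or cages, and the p-values below measure the spread between these mice.

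One library stood apart and touches most 25-week results. In the WT male 4 of 25 weeks, the mean deviation of the 7 genes from their group means was -3.16 on the log2(TPM + 1) scale. Its Myh7 was at 0.0895 TPM against 15.5 to 22.8 in the other 3 males of its group, and its Myh2, the IIa myosin of oxidative fast fibres, at 68.9 TPM against 470 to 549. Its fast light chain Mylpf was the highest of the group, at 5477 TPM against 3527 to 3947. The same library had a mitochondrial share of 32% against 44.6% to 46.9%, and a depth ratio of 9.44 against 6.78 to 8.02. In the opposite direction, the Col6a2-/- female 4 of 25 weeks lay 0.81 log2 units above its group mean for the 7 genes, with a mitochondrial share of 32.4% against 40.1% to 43.4% and the lowest Myh2 of its group, 219 TPM against 530 to 694. The part of these differences in the results was not tested. The 25-week genotype and sex differences of the 7 genes are given with and without the WT male 4. So are the WT age differences. The changes with age of the genotype and sex differences are given only with that mouse. So is the 25-week difference between the sexes in the genotype effect. Without that mouse 0 of the 7 were called in these comparisons. The 25-week calls are also given without both mice.

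The 7 genes varied widely between mice of a group. In what follows, the 4 values of a group are the mice 1 to 4, in TPM. The regulatory light chain Myl2 was the most abundant of the 7 by its mean over the 32 libraries (189 TPM), and Tnni1 the least (20.2 TPM).

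At 5 weeks, Myl2 was at 133, 447, 108 and 212 TPM in WT females, 25.4, 181, 129 and 21.8 in WT males, 132, 105, 295 and 151 in Col6a2-/- females, and 15.4, 233, 173 and 195 in Col6a2-/- males. At 25 weeks, Myl2 was at 436, 503, 156 and 268 TPM in WT females, 73.3, 119.9, 64.3 and 0.549 in WT males, 218, 244, 271 and 548 in Col6a2-/- females, and 166, 212, 132 and 91.4 in Col6a2-/- males. Every 25-week WT male was below every 25-week WT female, and the same held in Col6a2-/- mice, while WT and Col6a2-/- values overlapped at both ages and in both sexes.

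The essential light chain Myl3 was at 66.5, 126, 75.4 and 87.1 TPM in 5-week WT females, 24.8, 113, 46.0 and 8.78 in WT males, 58.8, 41.9, 116 and 61.3 in Col6a2-/- females, and 5.97, 119, 89.8 and 112 in Col6a2-/- males. Its 25-week values were 186, 191, 88.2 and 106 TPM in WT females, 87.8, 92.4, 127 and 0.349 in WT males, 108, 114, 131 and 160.2 in Col6a2-/- females, and 105, 74.4, 111 and 73.8 in Col6a2-/- males. Myl3 overlapped between the sexes and between the genotypes at both ages.

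Tnnt1, which ties the troponin complex to tropomyosin, was at 38.8, 114, 44.2 and 48.6 TPM in 5-week WT females, 10.0, 72.2, 44.8 and 6.13 in WT males, 47.3, 49.0, 84.7 and 33.4 in Col6a2-/- females, and 15.9, 98.3, 68.7 and 77.1 in Col6a2-/- males. In 25-week mice Tnnt1 was at 87.0, 111, 41.0 and 67.0 TPM in WT females, 21.6, 30.1, 24.3 and 0.399 in WT males, 56.0, 73.8, 91.0 and 172 in Col6a2-/- females, and 49.5, 53.1, 58.0 and 27.8 in Col6a2-/- males. WT males and females of 25 weeks did not overlap, whereas in Col6a2-/- mice 1 male, at 58.0 TPM, exceeded 1 female, at 56.0 TPM.

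Tnni1, the inhibitory subunit, was at 11.9, 35.4, 17.8 and 18.3 TPM in 5-week WT females, 2.91, 23.7, 14.2 and 1.38 in WT males, 21.8, 20.4, 35.4 and 9.42 in Col6a2-/- females, and 8.12, 37.0, 22.2 and 25.9 in Col6a2-/- males. At 25 weeks it was at 29.4, 38.5, 15.4 and 27.9 TPM in WT females, 8.25, 8.27 and 6.83 in WT males with the male 4 listed at 0, 17.6, 21, 31.1 and 82.4 in Col6a2-/- females, and 13.2, 15.8, 16.9 and 7.64 in Col6a2-/- males. Males lay below females of their genotype at 25 weeks in every mouse, and at 5 weeks the sexes overlapped.

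Tnnc1, the calcium sensor, was at 34.1, 103, 40.8 and 48.5 TPM in 5-week WT females, 7.30, 65.9, 39.4 and 2.21 in WT males, 30.4, 36.0, 84.5 and 20.6 in Col6a2-/- females, and 7.75, 84.9, 43.6 and 57.4 in Col6a2-/- males. The 25-week levels were 87.0, 119, 46.9 and 88.3 TPM in WT females, 24.4, 32.1, 19.5 and 0.144 in WT males, 60.1, 75.1, 95.4 and 241 in Col6a2-/- females, and 45.6, 59.5, 52.5 and 24.3 in Col6a2-/- males. Again every 25-week male was below every 25-week female of its genotype, by a narrow gap in Col6a2-/- mice (59.5 against 60.1 TPM).

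Tpm3 was at 46.4, 116, 52.0 and 53.0 TPM in 5-week WT females, 25.0, 82.4, 54.2 and 18.0 in WT males, 38.3, 49.0, 85 and 34.1 in Col6a2-/- females, and 28.6, 95.5, 61.0 and 69.8 in Col6a2-/- males. In the older mice it was at 98.5, 122, 41.5 and 79.8 TPM in WT females, 28.2, 30.3, 26 and 8.61 in WT males, 68.5, 82.9, 102 and 206 in Col6a2-/- females, and 61.9, 69.1, 66.1 and 36.2 in Col6a2-/- males. The 4 Col6a2-/- males of 25 weeks were all above the 4 WT males, and Tpm3 was the member for which these 2 groups did not overlap.

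Myoz2 was at 60.3, 81.0, 55.2 and 67.4 TPM in 5-week WT females, 33.2, 74.3, 27.1 and 24.3 in WT males, 51.0, 30.9, 82.5 and 74.7 in Col6a2-/- females, and 32.6, 84.9, 65.4 and 74.3 in Col6a2-/- males. Its 25-week levels were 77.2, 79.0, 54.8 and 61.1 TPM in WT females, 36.4, 53.5, 44.4 and 1.68 in WT males, 76.5, 61.1, 74.3 and 67.7 in Col6a2-/- females, and 50.1, 40.1, 44.3 and 28.4 in Col6a2-/- males. In each genotype, every 25-week male was below every 25-week female.

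**Figure D1:**
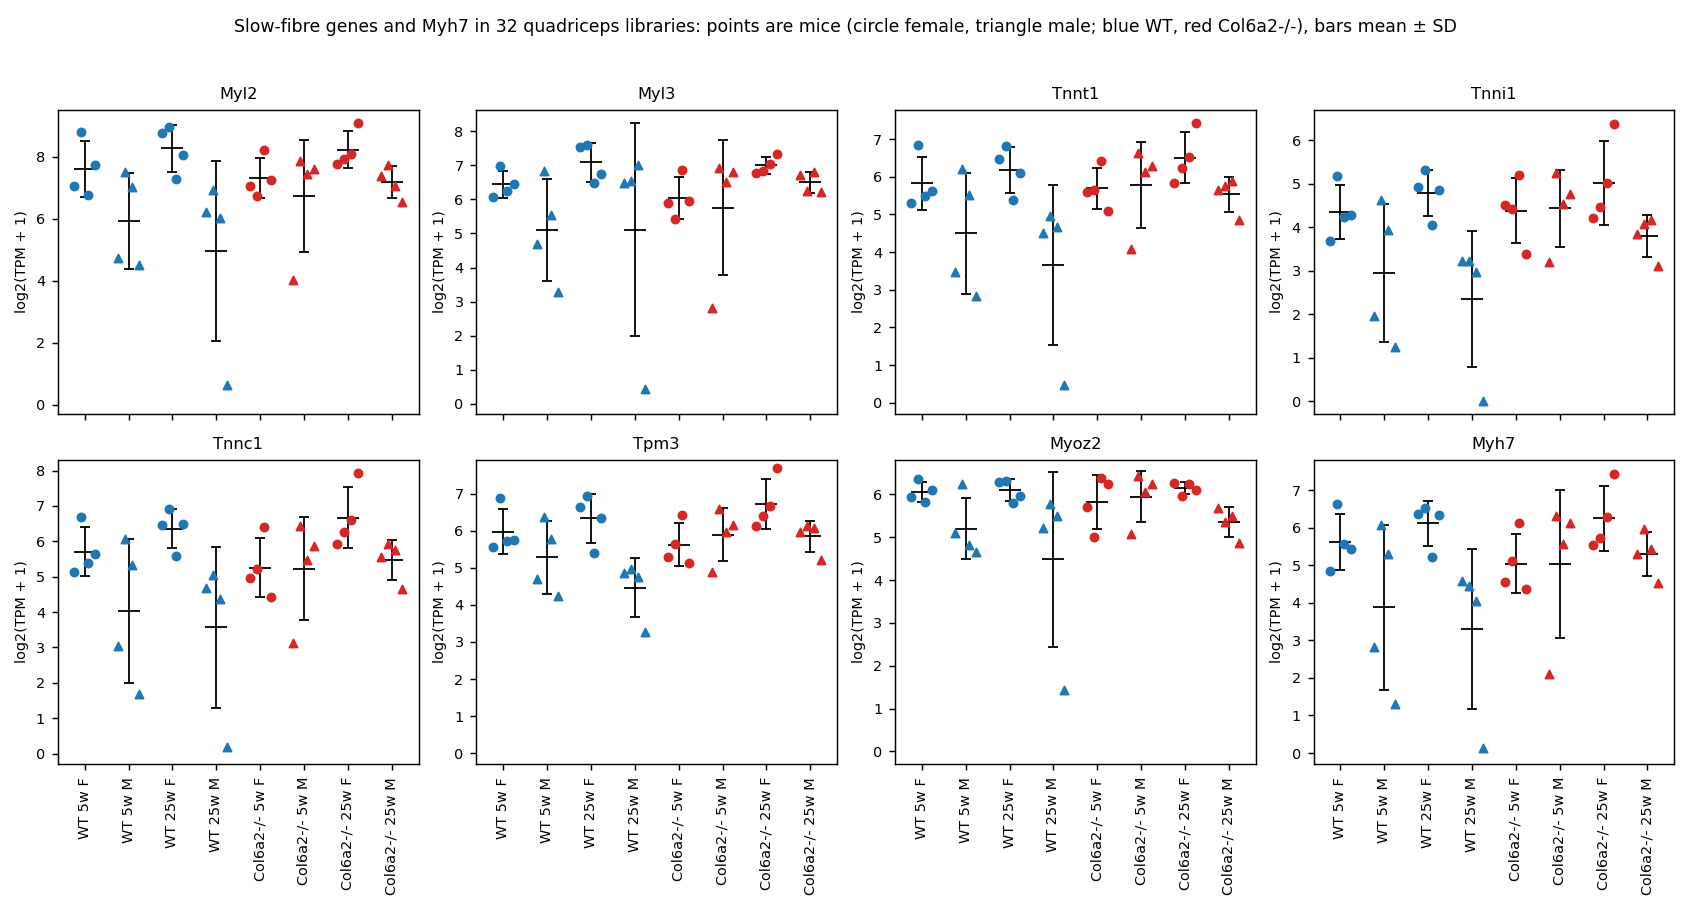
Level of each of the 7 genes and of Myh7 in the 8 groups, as log2(TPM + 1) on the vertical axis; points are mice (circles female, triangles male, blue WT, red Col6a2-/-) and bars the mean ± SD of 4 mice. The 25-week WT males include 1 mouse far below the rest in all 8 panels, and 25-week males of both genotypes tend to sit below the females.

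Ordered by mean level, 25-week WT females were highest for Myl2 (341 ± 158 TPM; SD, n = 4) and Myl3 (143 ± 53.4 TPM), and 25-week Col6a2-/- females for Tnnt1 (98.2 ± 51.1 TPM), Tnni1 (38.0 ± 30.1 TPM), Tnnc1 (118 ± 83.2 TPM), Tpm3 (115 ± 62.2 TPM) and Myoz2 (69.9 ± 6.94 TPM). The lowest group was 25-week WT males for 6 genes, for example Myl2 at 64.5 ± 49.1 TPM and Tpm3 at 23.3 ± 9.94 TPM, and 5-week WT males for Myl3 (48.2 ± 46.0 TPM). From the highest to the lowest group, means differed 6.51-fold for Tnni1, 6.18-fold for Tnnc1, 5.28-fold for Myl2, 5.14-fold for Tnnt1, 4.92-fold for Tpm3, 2.96-fold for Myl3 and 2.06-fold for Myoz2. Without the WT male 4 of 25 weeks they differed by 4.88-fold for Tnni1, 4.65-fold for Tnnc1, 3.97-fold for Myl2 and 1.76-fold for Myoz2, and the lowest group for Myoz2 became 5-week WT males (39.7 ± 23.3 TPM). Neighbours in the order differed by less than the larger of their SDs in every step for 6 genes and in 6 of 7 steps for Myl3; the exception was the step from 25-week Col6a2-/- females to Col6a2-/- males (128 ± 23.4 against 91.2 ± 19.9 TPM).

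The spread between mice within groups was large. The residual SD of log2(TPM + 1) within groups was 1.46 for Myl3, 1.44 for Myl2, 1.32 for Tnnc1, 1.13 for Tnnt1, 1.01 for Tnni1, 0.85 for Myoz2 and 0.70 for Tpm3, against a median of 0.20 over the tested genes. Ranked by this SD, Myl3 was 27th, Myl2 28th, Tnnc1 35th, Tnnt1 47th, Tnni1 59th, Myoz2 105th and Tpm3 174th of 12817. Myh7 ranked 30th, with a residual SD of 1.41. Part of this spread came from 1 mouse: without the 25-week WT male 4 the residual SD was 1.07 for Tnnc1, 1.04 for Myl2, 0.97 for Myl3, 0.87 for Tnnt1, 0.86 for Tnni1, 0.65 for Tpm3 and 0.45 for Myoz2, beside the same median of 0.20. The ranks were then 50th for Tnnc1, 54th for Myl2, 66th for Myl3, 98th for Tnnt1, 99th for Tnni1, 201st for Tpm3 and 500th for Myoz2 of 12807.

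Mice that were high or low for 1 of these genes tended to be so for the others, Myoz2 least. With group means removed, the 21 pairs of the 7 genes had Pearson r between 0.65 and 0.99 over the 32 libraries (median 0.92) and Spearman rho between 0.61 and 0.98. All 21 pairs passed a permutation test that shuffled mice within groups (100000 resamples), with Benjamini-Hochberg adjusted p over the 21 of at most 0.0027 for r and 0.0036 for rho. By r, Tnnt1 and Tnnc1 were closest (r = 0.987, rho = 0.975), and Tpm3 and Myoz2 least close (r = 0.648, rho = 0.675, permutation adjusted p = 0.00033). By rho, the closest pair was Tnni1 and Tnnc1 (0.982) and the least close Tnni1 and Myoz2 (0.615). Without the 2 libraries farthest from the median of the first gene of a pair, r ran from 0.568 to 0.981. Leaving out each library in turn kept all 21 pairs past the threshold.

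The 15 pairs without Myoz2 had r of 0.775 to 0.987, and the 6 with Myoz2 a lowest r of 0.648 and a highest of 0.919, with Myl3. In 21 of the 32 libraries all 7 genes lay on the same side of their group mean. In the 25-week Col6a2-/- female 1, 6 genes were the lowest of their group and Myoz2 the highest. Besides the 25-week WT male 4, the lowest were the Col6a2-/- male 1 of 5 weeks (mean deviation -1.80 log2 units) and the WT male 4 of 5 weeks (-1.50). The highest was the WT male 2 of 5 weeks (1.55). In bulk RNA, fewer slow fibres and less slow RNA per fibre cannot be told apart.

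**Figure D2:**
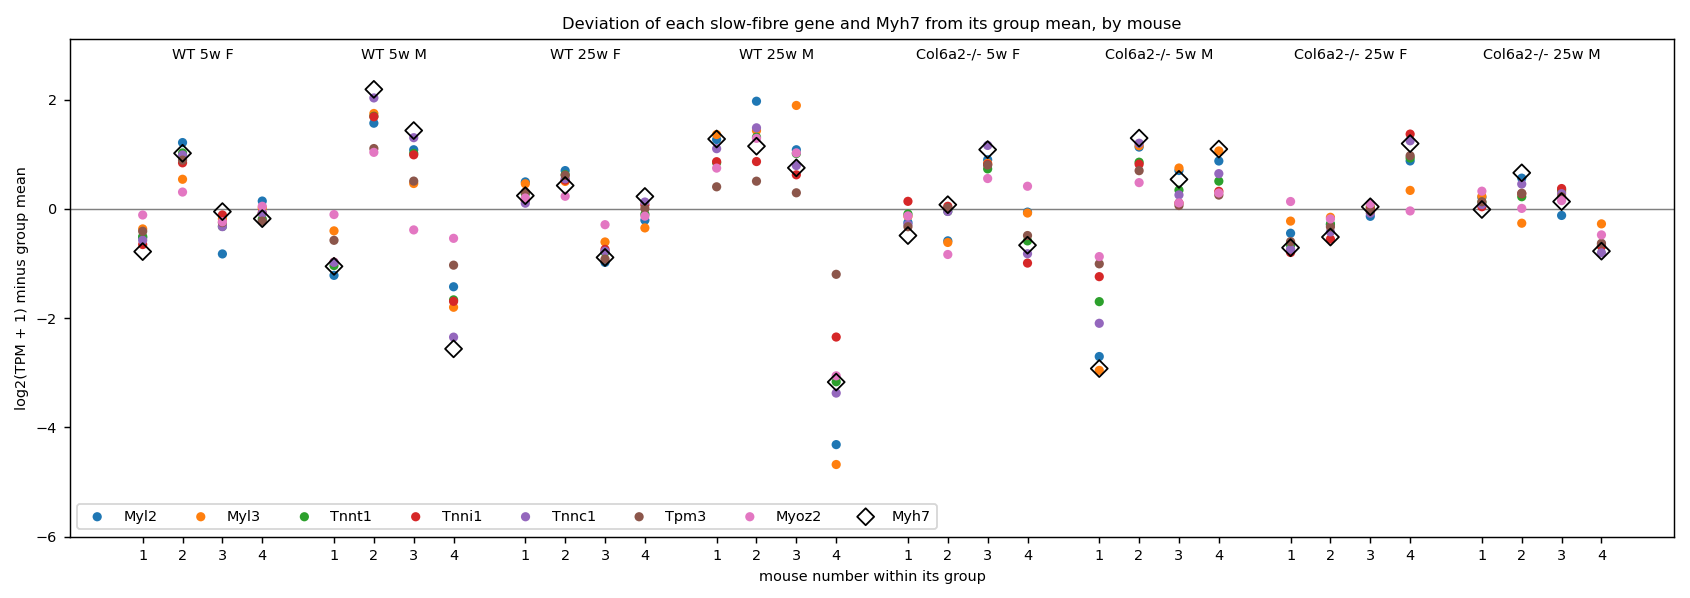
Deviation of each of the 7 genes (coloured points) and Myh7 (open diamonds) from its group mean, in log2(TPM + 1) units on the vertical axis, for each of the 32 mice by group on the horizontal axis. The points of a mouse stay together, all 7 on one side of 0 in 21 of 32 mice, and the 25-week WT male 4 reaches -4.68.

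The myosin heavy chains of slow and of IIa fibres were set beside the 7 genes in 14 relations, chosen after the data were seen. Myh7 followed all 7: r was 0.984 with Tnnc1, 0.964 with Tnnt1, 0.954 with Tnni1, 0.933 with Myl2, 0.927 with Tpm3, 0.898 with Myl3 and 0.737 with Myoz2 (rho 0.978, 0.956, 0.958, 0.931, 0.945, 0.859 and 0.646). The permutation p adjusted over the 14 relations was at most 0.0026 for these r and 0.0037 for these rho, and r without the 2 farthest libraries ran from 0.595 (Myoz2) to 0.985 (Tnnc1).

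Myh2 showed another order. Myoz2 followed it most closely, with r = 0.869, rho = 0.759, permutation adjusted p = 0.0002, and r = 0.838 without the 2 farthest libraries. Myl3 also passed the threshold (r = 0.717, rho = 0.547, permutation adjusted p = 0.023 and 0.024), and r was 0.590 without the 2 farthest libraries. Myl2 had r = 0.626 (permutation adjusted p = 0.067) and rho = 0.493 (permutation adjusted p = 0.038). Tnnt1, Tnnc1, Tnni1 and Tpm3 had r between 0.302 and 0.538, with permutation adjusted p from 0.12 to 0.2, and did not pass. The difference between the Myh7 and Myh2 relations of a gene was not tested.

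**Figure D3:**
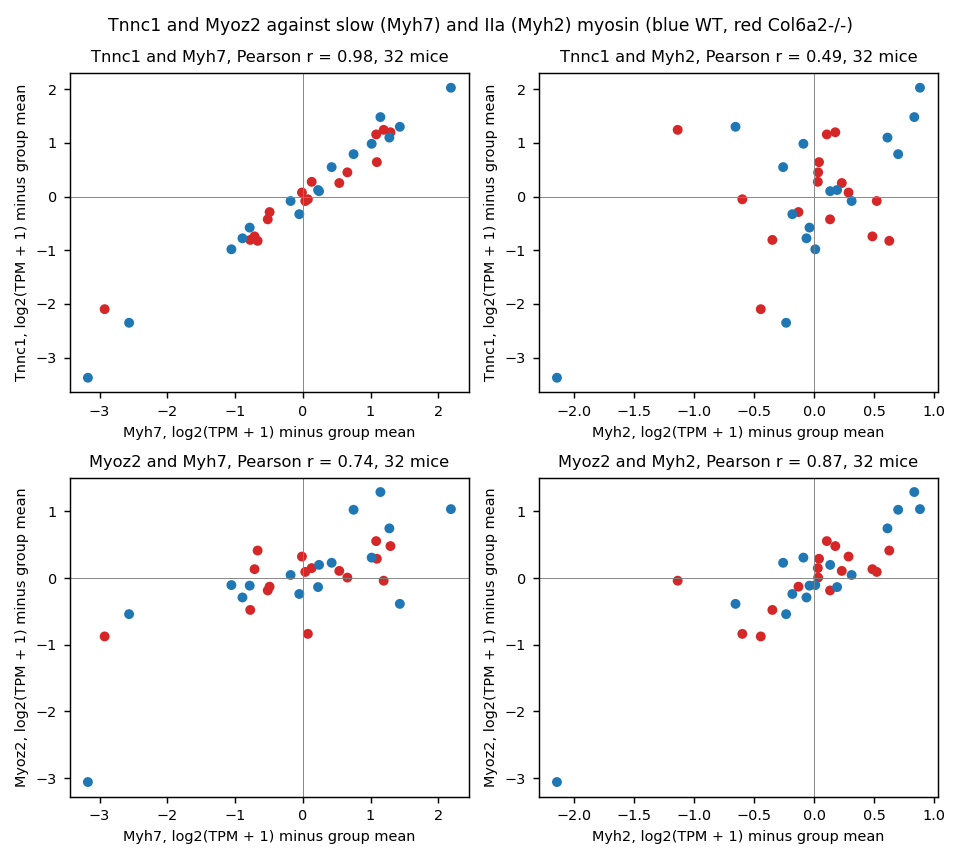
Tnnc1 and Myoz2 (vertical axes) against Myh7 and Myh2 (horizontal axes), each as log2(TPM + 1) minus the group mean; each point is 1 of 32 mice, blue WT and red Col6a2-/-. Tnnc1 lies close to a line with Myh7 (r = 0.984) and is scattered against Myh2 (r = 0.493), while Myoz2 has r of 0.737 and 0.869.

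Among the other 12810 tested genes, those whose deviations were most like the mean of the 7 were, by Pearson r over 32 libraries, Myh7 (0.963), Atp2a2 (0.913), Gm34302 (0.867), Myh6 (0.795), Homer2 (0.744), Bdh1 (0.744), Hspb7 (0.738), Slc15a5 (0.727), Myom3 (0.725) and Idh2 (0.724). Atp2a2 encodes the calcium pump of slow and cardiac muscle, Bdh1 a ketone body enzyme, Idh2 the mitochondrial isocitrate dehydrogenase that uses NADP, and Myom3 an M-band protein. Myh6 lies beside the near-identical Myh7, so its value is uncertain. The lowest r belonged to Tlcd1 (-0.644), Actg2 (-0.646) and Il1rl2 (-0.648). An r of at least 0.8 was reached by 3 genes and of at least 0.9 by 2; these libraries share depth and scaling, and r is a description here. Without the 25-week WT male 4, 5 of these 10 genes remained among the 10 most like: Myh7 (0.973), Gm34302 (0.916), Atp2a2 (0.875), Myh6 (0.773) and Homer2 (0.577). The r of the other 5 was then 0.469 for Bdh1, 0.441 for Idh2, 0.439 for Myom3, 0.417 for Hspb7 and 0.402 for Slc15a5. Of the 3 genes with the lowest r, Tlcd1 was then at -0.482 (rank 12727), Actg2 at -0.499 (rank 12755) and Il1rl2 at -0.416 (rank 12548).

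At 5 weeks, loss of Col6a2 gave no called change in the 7 slow genes. Differences below are Col6a2-/- minus WT of log2(TPM + 1), averaged over the sexes, from limma with Benjamini-Hochberg adjustment over the 12817 genes; called means adjusted p under 0.05. None of the 7 was called, against 25.4% of tested genes, and none had an unadjusted p under 0.05, where 4961 of the 12817 genes did. Tnni1 differed by 0.76 (SE 0.463, adjusted p = 0.226), Tnnt1 by 0.57 (SE 0.518, adjusted p = 0.421) and Tnnc1 by 0.37 (SE 0.603, adjusted p = 0.673). Myl2 and Myoz2 differed by 0.26 each, and Myl3 and Tpm3 by 0.13 each. The median of the 7 was 0.26, beside 0.15 over the tested genes.

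The 95% confidence intervals were wide: from -1.09 to 1.60 for Myl2, from -0.19 to 1.71 for Tnni1 and from -0.53 to 0.79 for Tpm3. With scaling by median-of-ratios size factors the all-gene median moved from 0.15 to 0.02, and Tpm3 and Myl3 turned to -0.02. The same scaling took the share of called genes that were higher from 91.6% to 59.7%, and quantile normalization took it to 45.8%. In 5-week females none of the 7 was called (12.9% of tested genes were), with differences from -0.45 to 0.03, and in 5-week males none (5.03%), with differences from 0.62 to 1.49. Some of these males lay far from their group means. Deviations ran from -2.96 to -0.88 in the Col6a2-/- male 1, from -2.35 to -0.54 in the WT male 4 and from 1.03 to 2.03 in the WT male 2. The male differences are not given here without these mice. Of the 7, Tnni1 in males had an unadjusted p under 0.05 (1.49, adjusted p = 0.201), and 0 did in females. Of the 12817 tested genes, 2518 did in males and 3749 in females. Groups of 4 overlapped for every member in both sexes, where 9.19% of tested genes in females and 10.9% in males did not overlap. The test of a sex difference in the genotype effect called 0 of the 7 (0% of tested genes), and 0 members had an unadjusted p under 0.05 (253 of the 12817 tested genes did).

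At 25 weeks the 7 differences were all positive and none was called, against 4.7% of tested genes. Tpm3 had the smallest adjusted p: it was 0.89 higher in Col6a2-/- muscle (SE 0.322, 95% confidence interval 0.23 to 1.54, adjusted p = 0.114). Tnnc1 differed by 1.11 (SE 0.603, adjusted p = 0.318), Tnnt1 by 1.10 (SE 0.518, adjusted p = 0.241), Myl2 by 1.09 (SE 0.657, adjusted p = 0.378), Tnni1 by 0.84, Myl3 by 0.65 and Myoz2 by 0.46. Tpm3 and Tnnt1 had an unadjusted p under 0.05, that is 2 of 7, and so did 2469 of the 12817 tested genes. The median of the 7 was 0.89, beside 0.08 over the tested genes.

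These differences leaned on the WT male 4. Without that mouse, Tpm3 differed by 0.69, Tnnt1 by 0.57, Tnnc1 by 0.54, Tnni1 by 0.45 and Myl2 by 0.37, and the values of Myl3 and Myoz2 turned to -0.13 and -0.05. The median of the 7 was then 0.45, and 1 of 7, Tpm3, had an unadjusted p under 0.05. The share of called genes that were higher moved from 95% to 69.1% with median-of-ratios size factors and 57.0% with quantile normalization. The test of the 25-week against the 5-week genotype effect called 0 of the 7 (0.492% of tested genes), with adjusted p of the 7 from 0.841 to 0.994. In that test 0 members had an unadjusted p under 0.05, where 898 of the 12817 tested genes did.

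By sex, the 25-week genotype differences ran from -0.09 to 0.39 in females, with 0 of 7 called (0.0078% of tested genes), and from 0.87 to 2.23 in males, with 0 of 7 called (3.03%). The female differences include the Col6a2-/- female 4, whose deviations from its group means ran from -0.04 (Myoz2) to 1.37 (Tnni1). They are not given here without that mouse, so their sizes and signs are uncertain. In males 5 of the 7 (Myl2, Tnnt1, Tnni1, Tnnc1 and Tpm3) had an unadjusted p under 0.05, as did 2532 of the 12817 tested genes. Tpm3 was 1.38 higher in Col6a2-/- males (SE 0.455, 95% confidence interval 0.45 to 2.31, adjusted p = 0.0869; adjusted p from 0.0407 to 0.248 over the alternatives). It passed the threshold with array weights (1.21, adjusted p = 0.0407) and when only the 25-week males were fitted (adjusted p = 0.0479). Array weights called 2437 of the tested genes in this comparison, where the main fit called 388. Without the WT male 4, the male differences were 0.98 for Tpm3 (adjusted p = 0.222), 0.83 for Tnnt1, 0.79 for Myl2, 0.77 for Tnnc1, 0.66 for Tnni1, -0.15 for Myoz2 and -0.17 for Myl3. Tpm3 alone of the 7 then had an unadjusted p under 0.05, so the range and the count of 5 in males rested on that mouse. By the values of single mice, 1 of 7 members, Tpm3, was higher in every Col6a2-/- male than in every WT male, and so were 13.9% of tested genes. In females 0 of 7 did not overlap, against 4.8% of tested genes. The test of the difference between the sexes called 0 of the 7 (0.0156% of tested genes), and 0 members had an unadjusted p under 0.05 (432 of the 12817 tested genes did).

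**Figure D4:**
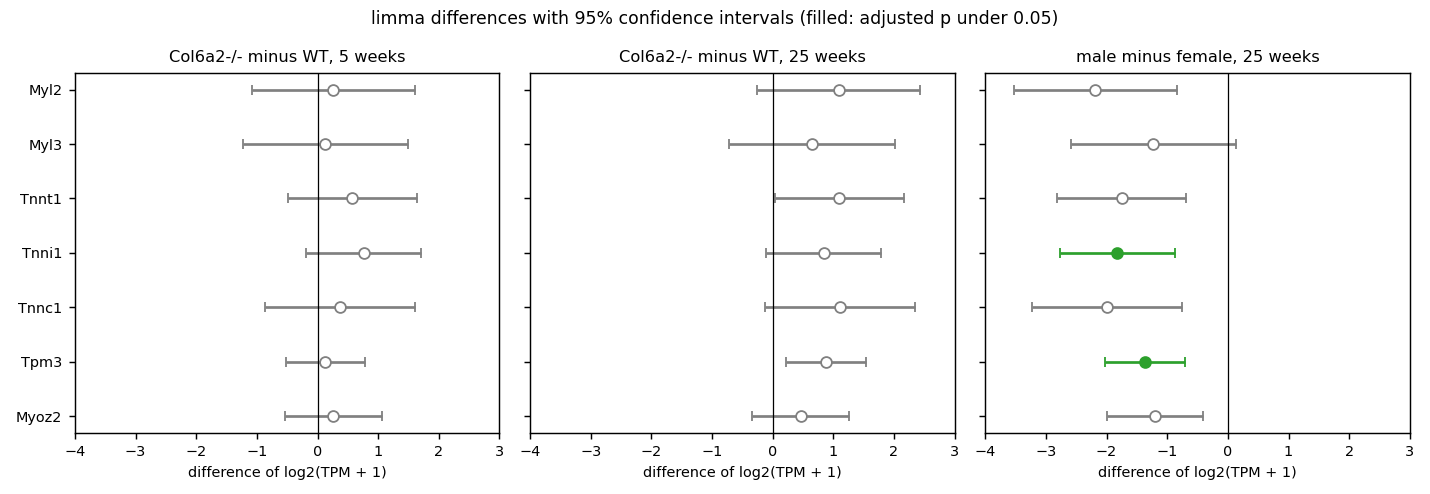
Differences of log2(TPM + 1) with 95% confidence intervals from limma, for each of the 7 genes (vertical axis), in genotype and sex comparisons. Filled points have an adjusted p under 0.05. Filled points occur in the sex comparison at 25 weeks, for Tpm3 (-1.37) and Tnni1 (-1.83).

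Markers of other cells moved with genotype in the same libraries. The summed level of 4 macrophage markers was 16.7 to 29.2 TPM in 5-week WT and 21 to 82.7 in 5-week Col6a2-/- libraries, and 10.7 to 27.1 against 22.9 to 43.9 TPM at 25 weeks; 4 of 4 were called higher at each age, where 23.2% of tested genes were called higher at 5 weeks and 4.47% at 25 weeks. The 4 fibroblast markers summed to 522 to 1348 TPM in WT and 469 to 1772 in Col6a2-/- libraries at 5 weeks, and to 213 to 409 against 376 to 605 TPM at 25 weeks, with 2 of 4 called higher at each age. Of 6 markers of immature muscle, 5 were called higher at 5 weeks and 1 at 25 weeks; their sum was 108 to 149 TPM in WT and 102 to 226 in Col6a2-/- libraries at 5 weeks, and Mymk and Mymx were at 0 in some libraries. Of 3 endothelial markers 2, and of 3 smooth muscle markers 1, were called higher at 5 weeks, and 0 of either at 25 weeks. Endothelial markers summed to 35.6 to 69.6 TPM in 5-week WT and 40.8 to 79.1 in 5-week Col6a2-/- libraries, and smooth muscle markers to 34.1 to 84.5 and 68.4 to 87.6 TPM. Of the adipocyte, tendon, spindle and nerve, and erythrocyte markers 0 were called at either age. Without the WT male 4 these 25-week counts were the same, and without both mice that stood apart 3 of 4 macrophage, 2 of 4 fibroblast and 1 of 6 immature muscle markers were called higher. The part of these cells in the levels of the 7 genes was not tested.

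Sex at 25 weeks gave the called changes of the set. Male minus female, averaged over the genotypes, 2 of the 7 were called, both lower in males; 2.41% of tested genes were called in either direction and 1.77% as lower. Tpm3 fell by 1.37 log2 units in males (SE 0.322, adjusted p = 0.0160) and Tnni1 fell by 1.83 (SE 0.463, adjusted p = 0.0282). The other 5 values were -2.19 for Myl2 (adjusted p = 0.0734), -2.0 for Tnnc1 (adjusted p = 0.0751), -1.75 for Tnnt1 (adjusted p = 0.0701), -1.20 for Myoz2 (adjusted p = 0.101) and -1.23 for Myl3 (adjusted p = 0.368). The median of the 7 was -1.75, beside -0.08 over the tested genes, and 6 of 7 had an unadjusted p under 0.05, as did 2011 of the 12817 tested genes. Without the WT male 4 of 25 weeks the values of these 5 were -1.47 for Myl2, -1.44 for Tnnc1, -1.22 for Tnnt1, -0.69 for Myoz2 and -0.45 for Myl3 (adjusted p from 0.0885 for Myoz2 to 0.615 for Myl3), and the same 6 had an unadjusted p under 0.05.

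Male and female groups of 4 did not overlap for 6 of 7 genes in 25-week WT mice, Myl3 being the exception, where 14.1% of tested genes were lower in every male. In Col6a2-/- mice 4 of 7 were lower in every male (Myl2, Tnni1, Tnnc1 and Myoz2), against 2.29% of tested genes. Tpm3 kept its call when any 1 of the 16 mice was left out (-1.52 to -1.17). Tnni1 lost its call without the WT female 1 or 2, the WT male 4, the Col6a2-/- female 4 or the Col6a2-/- male 4 (-1.43 without the WT male 4). With both 25-week mice that stood apart left out, Tpm3 was at -1.01 (adjusted p = 0.0994) and Tnni1 at -1.21 (adjusted p = 0.142), so neither was called. Over the alternatives the adjusted p ran from 0.00789 to 0.0994 for Tpm3 and from 0.0145 to 0.142 for Tnni1.

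The mitochondrial share moved with sex in WT mice of 25 weeks: 33.8% to 38.1% in females against 44.6% to 46.9% in males 1 to 3 and 32% in male 4. In Col6a2-/- mice it was 32.4% to 43.4% in females and 37.8% to 43.0% in males. Rescaled without mitochondrial genes and Rn7s, Tpm3 was -1.28 (adjusted p = 0.0470) and Tnni1 -1.94 (adjusted p = 0.0819). Called genes were higher in males in 26.5% of cases, in 51.5% with median-of-ratios size factors, 58.3% with quantile normalization and 61.7% after that rescaling; Tpm3 and Tnni1 were lower in males under each of them. Between the sexes at 25 weeks 0 of 4 macrophage, 0 of 4 fibroblast and 0 of 6 immature muscle markers were called.

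At 5 weeks the sex differences were -1.11 (Myl2) to -0.21 (Tpm3), 0 of 7 were called (4.49% of tested genes) and 0 had an unadjusted p under 0.05, where 2851 of the 12817 tested genes did. Sexes overlapped at 5 weeks for every member in both genotypes, where 17.6% of tested genes in WT and 1.54% in Col6a2-/- mice did not overlap. The change of the sex difference with age was called for 0 of 7 members (3.43% of tested genes). Of the 7, Tpm3 had an unadjusted p under 0.05 for it, with -1.16 (adjusted p = 0.116), as did 3503 of the 12817 tested genes. Age itself gave 0 of 7 in WT mice (19.8% of tested genes), with differences from -0.34 to 0.33, and 0 of 7 in Col6a2-/- mice (34.2%), with differences from -0.14 to 0.85. In either genotype 0 members had an unadjusted p under 0.05, where 4092 of the 12817 tested genes did in WT and 5657 in Col6a2-/- mice. Without the 25-week WT male 4 the WT age differences ran from -0.0308 for Tpm3 to 1.11 for Myl3, whose unadjusted p was then under 0.05 (adjusted p = 0.0878).

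Each slow gene was then set against its fast partner in the same library. Over the 32 libraries the slow form made up 0.01% to 9.12% of the sum for Myl2 with Mylpf, 0.0056% to 4.14% for Myl3 with Myl1, 0.0043% to 2.23% for Tnnt1 with Tnnt3 and 0% to 1.59% for Tnni1 with Tnni2. It made up 0.0022% to 4.30% for Tnnc1 with Tnnc2, 0.142% to 4.36% for Tpm3 with Tpm1 and 0.192% to 15.5% for Myoz2 with Myoz1. The lowest share of each pair was that of the 25-week WT male 4.

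The log2 ratio was taken as log2(slow TPM + 1) minus log2(fast TPM + 1), so that for low slow genes it depends on the added 1 and on the scaling; the ratio of Tnni1 in the WT male 4, listed at 0, is set by it. At 25 weeks 1 of 7 ratios differed by genotype in a two-sided exact permutation test that shuffled genotype within sex (4900 splits, smallest possible p 0.00041, adjusted over 14 tests). The log2 ratio of Tpm3 to Tpm1 was -5.57 ± 0.642 in Col6a2-/- and -6.78 ± 1.29 in WT mice (SD, n = 8), a difference of 1.21 (exact p = 0.00245, adjusted p = 0.0343). Tnnt1 to Tnnt3 differed by 1.29 (exact p = 0.0110, adjusted p = 0.0771), Tnnc1 to Tnnc2 by 1.28 (exact p = 0.0261, adjusted p = 0.0957) and Tnni1 to Tnni2 by 1.09 (exact p = 0.0273, adjusted p = 0.0957). Myl2 to Mylpf, Myl3 to Myl1 and Myoz2 to Myoz1 differed by 1.18, 0.79 and 0.61 (exact adjusted p = 0.233, 0.585 and 0.479). Without the WT male 4 the differences were 0.94 for Tpm3 to Tpm1 (exact adjusted p = 0.0914), 0.71 for Tnnt1 to Tnnt3, 0.65 for Tnnc1 to Tnnc2, 0.64 for Tnni1 to Tnni2, 0.40 for Myl2 to Mylpf, 0.0351 for Myoz2 to Myoz1 and -0.0466 for Myl3 to Myl1, and 0 of 7 passed.

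The Tpm3 to Tpm1 result depended on single mice: it lost its call in 11 of 16 analyses that left out 1 mouse (differences from 0.94 to 1.33, exact adjusted p from 0.0171 to 0.0971), and without both mice that stood apart it was 0.83 (exact adjusted p = 0.171). A limma fit of the 14 ratios gave it an adjusted p of 0.168. At 5 weeks 0 of 7 ratios passed; the differences ran from 0.47 for Myl2 to Mylpf to 1.06 for Tnni1 to Tnni2 (exact p = 0.0963, adjusted p = 0.233).

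**Figure D5:**
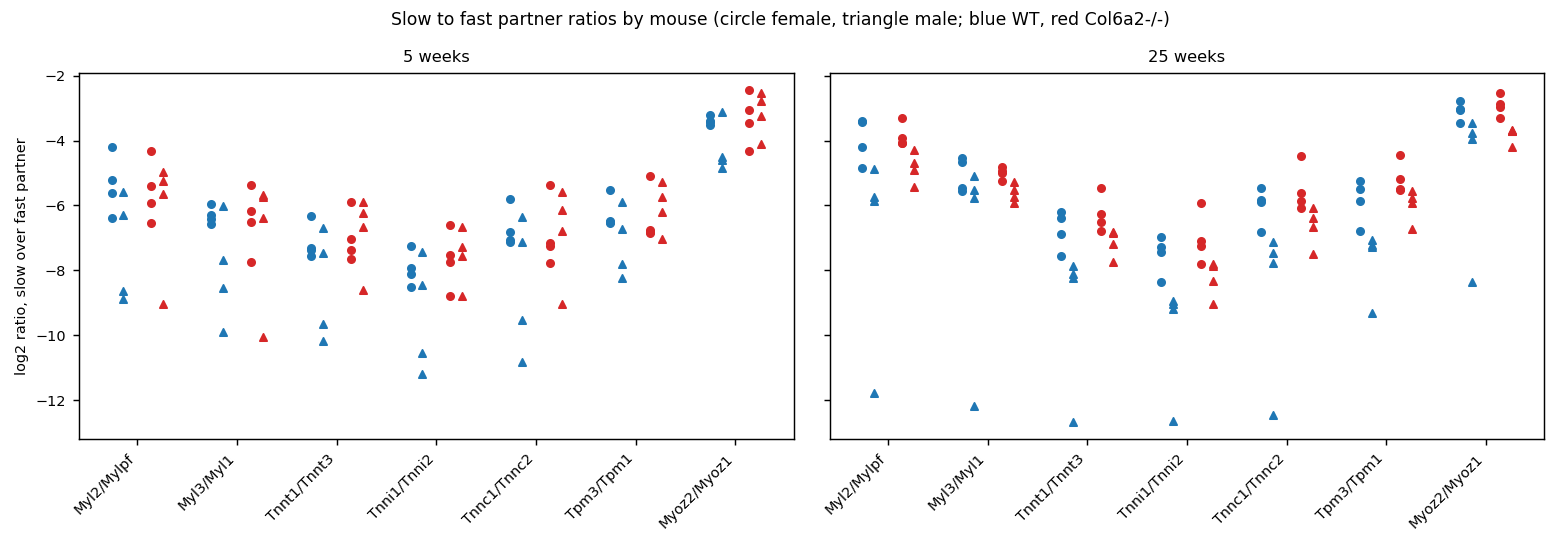
log2 ratio of each slow gene to its fast partner, each as TPM + 1 (vertical axis) for the 7 pairs, at 5 weeks (left) and 25 weeks (right); points are mice, circles female, triangles male, blue WT and red Col6a2-/-. The 25-week WT male 4 is the lowest point of every pair, and the Tpm3/Tpm1 ratios of Col6a2-/- mice centre on -5.57 against -6.78 in WT mice.

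The fast partners themselves were lower in Col6a2-/- muscle at 5 weeks. Of the 7, 6 were called lower (2.14% of tested genes were called lower): Tnnc2 fell by 0.32 (SE 0.0838, adjusted p = 0.00576), Tnnt3 by 0.32 (adjusted p = 0.00617), Tpm1 by 0.36 (adjusted p = 0.00912), Tnni2 by 0.30 (adjusted p = 0.0137), Myoz1 by 0.32 (adjusted p = 0.0211) and Myl1 by 0.34 (adjusted p = 0.0370). Mylpf differed by -0.21 (adjusted p = 0.129). General markers of skeletal muscle moved with them: 3 of 6 were called lower, namely Ckm, the muscle creatine kinase (-0.33, adjusted p = 0.0103), Myh4, the IIb myosin (-0.43, adjusted p = 0.0456), and Tnnt3 itself, with a median of -0.24 over the 6. The 6 summed to 23799 to 29864 TPM in 5-week WT and 18112 to 28870 TPM in 5-week Col6a2-/- libraries, and their part in the result was not tested. Of 15 fast contractile genes, the 7 partners included, 9 were called lower. With median-of-ratios size factors 7 were called lower, and with quantile normalization 3, without a change of sign. Over all tested genes, 3013 were called with median-of-ratios size factors (59.7% of them higher) and 3085 with quantile normalization (45.8% higher). The main fit called 3253 (91.6% higher). At 25 weeks 0 of 7 were called (Tpm1 -0.32, limma adjusted p = 0.0569). The count was also 0 without the WT male 4 (Tpm1 -0.26) or both mice that stood apart (Tpm1 -0.30). Median-of-ratios size factors gave 4 called lower at 25 weeks, and under quantile normalization Mylpf turned to 0.03. Over all tested genes, the main fit called 603 at 25 weeks (95% of them higher). Median-of-ratios size factors called 1177 there (69.1% of them higher).

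Other genes of the slow fibre were called in part. Of 12 slow contractile and calcium handling genes outside the set 11 were tested, and 2 were higher in Col6a2-/- muscle at 5 weeks (23.2% of tested genes were called higher): Smpx, a small muscle protein of the costamere (0.30, SE 0.0778, adjusted p = 0.00559), and Casq2, the slow and cardiac calsequestrin (0.80, adjusted p = 0.0166). With median-of-ratios size factors 0 of the 11 were called at 5 weeks (Smpx 0.14, Casq2 0.64), where 3013 tested genes were. At 25 weeks Smpx (0.37, adjusted p = 0.00617) and Pln, the phospholamban that restrains the slow calcium pump (0.41, adjusted p = 0.0264), were higher (4.47% of tested genes were). After rescaling without mitochondrial genes and Rn7s 0 of the 11 were called (Smpx 0.30, Pln 0.47), where 559 tested genes were. Both kept their call without the WT male 4 (Smpx 0.37, Pln 0.38), and without both mice that stood apart Smpx did (0.36, adjusted p = 0.0207) and Pln did not (0.38, adjusted p = 0.0772). Myh7 differed by 0.28 at 5 weeks (adjusted p = 0.764) and 1.07 at 25 weeks (adjusted p = 0.376), within the range of the 7 genes at each age. Between the sexes at 25 weeks, Atp2a2 (-1.13, adjusted p = 0.0215) and Casq2 (-0.96, adjusted p = 0.0276) were lower in males, 2 of 11 (1.77% of tested genes were). Without the WT male 4 both remained called (Atp2a2 -0.89, Casq2 -0.69), and without both mice that stood apart neither was (Atp2a2 -0.77, adjusted p = 0.105; Casq2 -0.68, adjusted p = 0.0698). Myh7 differed by -1.88 between the sexes at 25 weeks (adjusted p = 0.126). Myh7 without the WT male 4 differed by 0.54 between the genotypes and -1.35 between the sexes at 25 weeks.

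Of 26 regulators of fibre type 25 were tested. At 5 weeks 3 of the 25 were higher in Col6a2-/- muscle (23.2% of tested genes were called higher): Tead4, a TEAD factor (0.78, SE 0.0960, adjusted p = 1.07e-06), Hdac4, a class II deacetylase that represses MEF2 factors (0.45, adjusted p = 0.00594), and Mef2a (0.40, adjusted p = 0.0466). Under median-of-ratios size factors 2 were higher and 3 lower, and Mef2a was not called (0.25). That scaling called 3013 tested genes at 5 weeks, 59.7% of them higher, against 3253 in the main fit, 91.6% of them higher. At 25 weeks 0 of 25 were called with TPM (4.7% of tested genes were), and 5 were called lower with median-of-ratios size factors. Of the tested genes, 1177 were then called, 69.1% of them higher. The developmental isoforms Myl4 (3.32, adjusted p = 3.2e-15), Myh3 (2.37, adjusted p = 7.26e-12) and Tnnt2 (1.72, adjusted p = 4.9e-10) were higher at 5 weeks and, with smaller differences, at 25 weeks (0.77, 0.74 and 0.48), 3 of 6 tested each time (4.47% of tested genes were called higher at 25 weeks). At 25 weeks the alternatives gave 0 (pseudocount 5, where 317 tested genes were called) to 4 (array weights, where 1967 were). Without the WT male 4 the count was 2, and Tnnt2 was not called (0.46, adjusted p = 0.0693). Without both mice that stood apart it was also 2 (Tnnt2 0.37, adjusted p = 0.164). Of the 6 genes for Z-disc partners of calsarcin, Capn3, the muscle calpain, fell by 0.30 at 5 weeks (adjusted p = 0.00549), 1 of 6 where 2.14% of tested genes were called lower, and 0 of 6 were called at 25 weeks (4.7% of tested genes were). Median-of-ratios size factors gave 4 lower at 5 weeks, where 3013 tested genes were called, 59.7% of them higher.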

How the data were processed

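RNA sequencing tables of 32 mouse quadriceps libraries were used. Per the labels' protocols, a TruSeq RNA kit and paired-end reads were used, with a MiSeq named as the instrument. Per the submitters' processing notes, FastQC, MultiQC, Trimmomatic, HISAT2, SAMtools and StringTie were run with GRCm38; versions and use of strand are not given in the sources used here. The deposited tables give coverage, FPKM and TPM per gene, per the file headers. TPM values were scaled by the authors to a common total, mitochondrial genes and Rn7s included. FPKM values of the authors were an alternative and, with the deposited coverage signal, gave depth, whose absolute size is above what the named instrument usually yields and serves only to compare libraries. Without counts no counting interval can be given.

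TPM was summed per gene ID and analysed as log2(TPM + 1), which understates changes of low genes; the filter kept 12817 of 53801 genes (1 TPM or more in 4 or more libraries). A model of 8 group means over the 32 libraries was fitted in limma 3.58.1 (R 4.3.3, with the package data.table, version 1.17.8; eBayes with trend), and 14 two-sided contrasts were adjusted by Benjamini-Hochberg over the tested genes. Tested on simulated data for genotype at 5 weeks (200 of 12817 genes changed), it recovered 94% of 2-fold and 100% of 4-fold changes. These shares describe tested genes in general, whose median residual SD was 0.20. The members had residual SDs from 0.70 (Tpm3) to 1.46 (Myl3). Recovery of changes in genes with so large a spread was not tested, so these shares do not apply to the members. Ratios and correlations were tested by permutation in Python 3.11.15 with numpy 2.4.6, pandas 2.3.3 and scipy 1.17.1; plots used matplotlib 3.10.9. No library held another's values (highest r between libraries 0.984).

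The members, lists and tests were chosen with earlier results of these data known. The text names all 7 members, their fast partners, Myh7, Col6a2, of each other list at most the 4 genes with the smallest p for genotype at 5 weeks and the 2 at 25 weeks, the 10 genes most like the members and the 3 least like them. Myh2, Atp2a2 and Casq2 in sex comparisons, Mylpf in 1 library, the overlapping genes and the skeletal muscle markers were named after their values were seen. Alternatives were the pseudocount (0.1 or 5), the filter, 3 other scalings, FPKM, array weights, a fit of the compared libraries, a replicate block and leaving out each mouse. The spread, the order of group means and the genes most like the members without the 25-week WT male 4 were added after seeing the data.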

Additional observations from a re-analysis of the deposited data

Results flagged for a closer look

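In groups of 4 mice, the highest or lowest value was compared with the rest by Dixon's criterion (the gap to the nearest value as a share of the group's range, at the 95% critical value for 4), which chance alone meets in about 1 in 20 groups; 3 of 56 groups met it. Myl2 was at 548 TPM in the 25-week Col6a2-/- female 4, far above the other 3 females (218 to 271 TPM). In the 5-week WT female 2, Tnnt1 was at 114 TPM (others 38.8 to 48.6) and Tpm3 at 116 TPM (others 46.4 to 53.0).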

How the results depend on the processing

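Genotype at 5 and 25 weeks, in each sex and by age, age in each genotype and sex at 5 weeks gave 0 called members under every alternative run, except in 25-week males, where 1 was called (Tpm3) with array weights and in the fit of the compared libraries. Array weights called 2437 of the tested genes there, against 388 in the main fit. For sex at 25 weeks, 2 members were called, and 1 with a pseudocount of 0.1, without the filter or rescaled without mitochondrial genes and Rn7s, 3 with FPKM, 6 with array weights, 0 with both mice that stood apart left out (chosen after seeing the data), and 1 to 5 without single mice (5 without the WT male 2). Over all tested genes, 309 were called for sex at 25 weeks in the main fit, 516 with FPKM and 1543 with array weights. A pseudocount of 0.1 gave 350, no filter 325 and the rescaling 256. At 25 weeks, 1 ratio passed, 0 with both mice left out and 0 to 2 without single mice.

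Signs turned for some differences that were not called; the cause was not tested. With median-of-ratios size factors the genotype difference at 5 weeks was -0.0246 for Tpm3 and -0.0200 for Myl3, and with quantile normalization -0.00222 for Myl3. With both mice left out, genotype at 25 weeks was -0.0412 for Myoz2 and -0.19 for Myl3, in males -0.15 and -0.17, and Myl3 to Myl1 -0.0477. Without single mice the ranges were, at 5 weeks, -0.0411 to 0.31 for Tpm3, -0.17 to 0.62 for Myl3 and -0.0227 to 0.72 for Tnnc1, at 25 weeks -0.0478 to 0.68 for Myoz2 and -0.13 to 0.96 for Myl3, in males -0.15 to 1.30 and -0.17 to 2.02, and -0.0466 to 1.13 for Myl3 to Myl1. Levels rescaled without mitochondrial genes and Rn7s were 2.56 to 3.33 times those deposited.

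Replicate numbers do not pair the mice: deviations of same-numbered libraries correlated at 0.03 on average (-0.34 to 0.35) and of others at -0.01. With the replicate number as a block, 3 members were called for sex at 25 weeks (Tnnt1 in addition, adjusted p = 0.0438), and the block changed no other member's call. Over all tested genes, 306 were called for sex at 25 weeks with the block. For the ratios the block was fitted with limma in place of the permutation test, and 0 passed at 25 weeks in that fit both with the block (Tpm3 to Tpm1 1.21, adjusted p = 0.126) and without it (adjusted p = 0.168).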
